A study of Mus musculus with 29 samples.

Results

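The unfolded protein response and endoplasmic reticulum (ER) folding genes were taken as 40 listed genes of 55357 genes in a count table. They were listed by symbol, with earlier results of these data known. They comprise 9 chaperones and their partners, 3 disulfide isomerases, 4 prolyl isomerases, 2 secreted stress factors, 7 genes of ER-associated degradation, 6 sensors and regulators, 3 translocon genes and 6 genes of secretory transport. All 40 passed the filter on low counts in every comparison. Gene counts came from 29 RNA libraries of primary fibroblasts of the mouse heart, the connective tissue cells of the heart that make collagen. Aged cells are called ACF and young cells YCF. The cells were profiled either after 48 h on DECIPHER hydrogels, which carry heart extracellular matrix on a gel of set stiffness, or fresh, without that culture. The 10 groups were ACF+StiffA, ACF+SoftA, ACF+StiffY, ACF+SoftY, fresh ACF, YCF+StiffA, YCF+SoftA, YCF+StiffY, YCF+SoftY and fresh YCF, where Stiff or Soft names the gel and A or Y names aged or young matrix. Each group had 3 libraries except YCF+SoftY, which had 2. The titles call the libraries biological replicates. The labels give no age in months, sex or strain, and do not tie libraries to animals, so p-values reflect only how these libraries vary among themselves. The comparisons below share libraries with each other and are not independent.

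Proteins bound for secretion enter the ER through the Sec61 translocon, fold with the help of BiP (Hspa5) and lectin chaperones, and leave in COPII vesicles. When unfolded protein builds up, BiP leaves 3 membrane sensors, IRE1 (Ern1), PERK (Eif2ak3) and ATF6 (Atf6). IRE1 splices Xbp1 mRNA, PERK slows translation by phosphorylating eIF2alpha, and ATF6 is cut to release a transcription factor. The nuclear factors then raise the transcription of chaperone and degradation genes. Cardiac fibroblasts secrete large amounts of collagen, which loads the same machinery. Counts per gene show neither Xbp1 splicing nor the cleavage or phosphorylation of the sensors.

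The ER stress response element (ERSE), the DNA motif read by ATF6 and XBP1 with NF-Y, links several of these genes at the sequence level. It was searched as CCAAT and CCACG with any 9 bases between them, on both strands, in promoter windows of RefSeq (build GRCm38.p6) from 250 bases before to 50 bases after the start. Of the 40 genes, 32 had a window; Atf6, Sec61a1, Derl1, Hyou1, Creb3l1, Manf, Kdelr2 and Fkbp10 had none. The motif lay in 8 of the 32 (25%), against 37 of 27025 genes with a window (0.137%). ERSE-II, searched as ATTGG and CCACG with any 1 base between them on both strands, lay in 2 of the 32 (6.25%), against 12 of 27025 genes (0.0444%). The UPRE core TGACGTGG lay in Kdelr3 and Sec24d, and in 193 of the 27025 genes (0.714%). A match is a description of the letters and not a measured binding site. The matches are shown because 5 of the 8 genes called on aged matrix in aged cells below carry one. Capitals mark the fixed letters of the motif, each is written 5′ to 3′ in motif direction, and the position is that of the base farthest upstream of the start, with the start as 0.
Hspa5, -65: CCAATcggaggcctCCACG
Hsp90b1, -212: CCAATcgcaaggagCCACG
Hsp90b1, -107, reverse strand: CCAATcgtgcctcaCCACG
Calr, -162, reverse strand: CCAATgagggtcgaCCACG
Canx, -145: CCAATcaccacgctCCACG
Pdia6, -98: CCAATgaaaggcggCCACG
Creld2, -126, reverse strand: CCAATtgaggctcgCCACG
Dnajc3, -105: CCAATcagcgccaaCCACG
Syvn1, -44: CCAATcggcggtagCCACG
Herpud1, -52: ATTGGgCCACG
Dnajb11, 7: ATTGGcCCACG

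The match of Hspa5 is shown in its surroundings because BiP is the most abundant of these transcripts in fresh cells. The 250 bases before its start (chr2:34771840-34772089, plus strand, GRCm38.p6) read as follows, with the ERSE letters in capitals.
Hspa5 upstream: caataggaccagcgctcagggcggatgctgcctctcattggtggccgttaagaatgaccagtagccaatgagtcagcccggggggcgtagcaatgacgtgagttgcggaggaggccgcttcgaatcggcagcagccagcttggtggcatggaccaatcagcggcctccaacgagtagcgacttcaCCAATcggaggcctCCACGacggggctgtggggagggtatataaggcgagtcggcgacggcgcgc

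Libraries held 1192668 to 3275089 counts in genes. Levels are given as CPM, the count of a gene scaled to the same library total, with totals adjusted by TMM, a factor that sets the bulk of genes equal between libraries. Per kilobase of merged exon, Hspa5 stood at 1211 ± 54.0 CPM in fresh ACF and 1277 ± 56.2 CPM in fresh YCF (SD, n = 3 each), above the other members in both. Pdia3, a disulfide isomerase that works with the lectin chaperones, was next at 697 ± 27.1 CPM per kilobase in fresh ACF and 563 ± 22.04 in fresh YCF. In ACF+StiffA the pair did not differ beyond their spread, with Pdia3 at 761 ± 15.3 and Hspa5 at 759.9 ± 16.3 CPM per kilobase (SD, n = 3), while in ACF+SoftA the mean of Pdia3 was above that of Hspa5 (801 ± 53.7 and 684 ± 56.9). Eif2ak3, the sensor PERK, was lowest, at 0.854 ± 0.551 CPM per kilobase in fresh ACF and 1.23 ± 0.302 in fresh YCF, on 5 to 28 counts per library over the series. Creb3l1 had 22 to 74 counts per library and Ern1 had 40 to 141, which are also low. The Hspa5 gene (ENSMUSG00000026864) lies at 34661982 to 34667560 on chromosome 2 in mm39, the build of the files, and Ppp1r15a (ENSMUSG00000040435) at 45172340 to 45175693 on chromosome 7.

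Summed over the 40 genes, the level was highest in fresh cells and lowest in young cells on soft young matrix. Cultured aged cells had sums of 17688 to 17807 CPM in ACF+StiffA, 16730 to 17423 in ACF+SoftA, 15080 to 15915 in ACF+StiffY and 15039 to 15499 in ACF+SoftY. Fresh ACF had 19520 to 20478 CPM. Cultured young cells had 16053 to 16329 CPM in YCF+StiffA, 15290 to 15609 in YCF+SoftA, 14225 to 14658 in YCF+StiffY and 13373 to 14280 in YCF+SoftY, and fresh YCF had 18876 to 19442. Hence within each cell age the libraries on aged matrix lay above those on young matrix of the same stiffness, and all lay below the fresh libraries. The sum weighs abundant genes most, and the roles differed. Mean sums of chaperones (8971 CPM in fresh ACF, 6838 in ACF+StiffA), secreted factors and translocon genes were lower in every cultured group than in fresh cells of that age. Those of transport (1522 CPM in fresh ACF, 1883 in ACF+StiffA), degradation and prolyl isomerase genes were higher. Disulfide isomerases and sensors and regulators gave no single order. The order of the fresh groups depends on the scaling: as a share of all counts the 40 genes took 1.91% in fresh ACF and 2.05% in fresh YCF. In bulk RNA, fewer cells of a type and less RNA per cell cannot be told apart.

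None of 8 fibroblast markers was at 0 in any group, which does not set fibroblasts apart, as none of 6 endothelial markers was either. The fibroblast markers summed to 19366 to 31459 CPM in cultured libraries, 6441 to 6893 in fresh ACF and 7965 to 8494 in fresh YCF. In every library this sum was above that of any other marker list. Markers of macrophages and other myeloid cells summed to 23.04 to 66.7 CPM in cultured libraries, 364 to 408 in fresh ACF and 202 to 206 in fresh YCF, with 10 of 10 above 0 in fresh cells of both ages. Plasma and B cell markers summed to 96.9 to 166 CPM in cultured libraries, 168 to 189 in fresh ACF and 279.5 to 317 in fresh YCF, while Jchain, Mzb1, Ms4a1 and Pou2af1 were at 0 in both fresh groups. T cell markers summed to 0 to 0.414 CPM in fresh ACF and 0 in fresh YCF, and cardiomyocyte markers to at most 5.09 CPM in fresh ACF and 23.8 in culture. Among replicates, YCF+SoftA replicate 3 stood furthest apart: its counts differed from those of replicates 1 and 2 with a chi-square per degree of freedom of 4.99 and 9.07, against 2.16 between these 2. It held the highest value of the cultured YCF libraries for Calr, Fkbp14 and Dnajb9 among others. YCF+StiffA replicate 3 gave 5.34 and 4.57 (1.90 between its other replicates), and ACF+SoftA replicate 3 gave 4.21 and 3.89 (2.12). Fresh YCF replicate 1 gave 4.04 and 3.62 (1.94), and the 2 libraries of YCF+SoftY gave 5.27. All fresh libraries carry the letter A in their names and the cultured ones E to H by substrate, so a preparation that followed the letter cannot be told apart from culture or substrate.

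**Figure D1:**
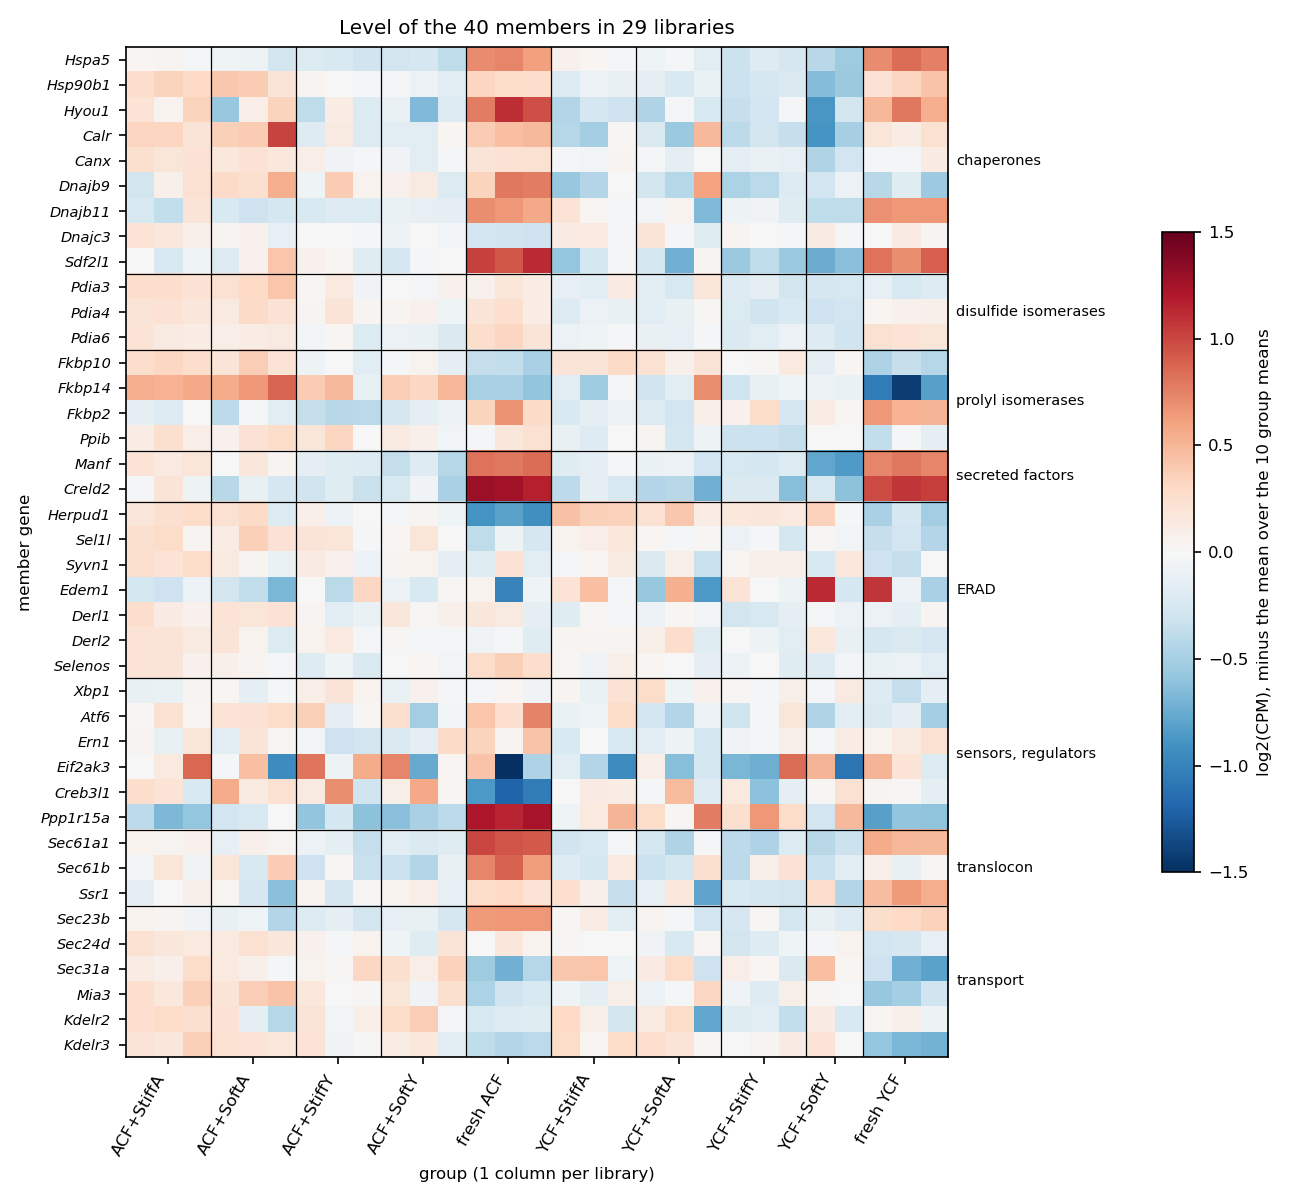
Heat map of the 40 genes (rows, grouped by role) over the 29 libraries (columns, set out by the 10 groups, aged cells left of young cells). Colour gives the log2 CPM of a library minus the mean of the 10 log2 group means, clipped at 1.5 either way. The fresh columns stand apart from the cultured ones, with Creld2, Sdf2l1, Manf and Hspa5 high in fresh cells of both ages and Ppp1r15a high in fresh ACF.

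In fresh cells, these genes split with age. Ppp1r15a and the co-chaperone Dnajb9 were the furthest up, Sec61b, Atf6, Fkbp14 and Sec61a1 followed, and Creb3l1, Herpud1 and Dnajc3 were the furthest down of those that passed the test. Of the 40 genes, 13 rose and 6 fell in fresh ACF by edgeR's quasi-likelihood test at an adjusted p under 0.05, against 15.0% of all 11786 genes higher and 16.8% lower (31.8% either way). The median log2 fold change was 0.11 for the 40 and -0.02 for all genes tested. With library totals in place of TMM factors, which moves the median of all genes by -0.13, the split was 8 higher and 8 lower, and 1 fit over all 29 libraries left 3 lower.

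Ppp1r15a (GADD34), the phosphatase subunit that reverses eIF2alpha phosphorylation and so restarts translation after PERK signalling, read 205, 196 and 208 CPM in fresh ACF, against 50.3, 58.9 and 58.4 CPM in fresh YCF. The groups were far apart, and the log2 fold change of 1.83 ± 0.09 (SE) was the largest of the 40 (adjusted p = 2.8e-09). The co-chaperone Dnajb9, which binds BiP and is a target of spliced XBP1 in mouse cells, had 61.1, 84.1 and 82.7 CPM in fresh ACF, against 36.3, 42.8 and 33.2 CPM in fresh YCF (0.97 ± 0.15, adjusted p = 0.00019). Every ACF library was above every YCF library. Atf6 mRNA rose as well, with 58.6, 52.2 and 73.7 CPM in fresh ACF against 37.7, 39.9 and 30.8 CPM in fresh YCF (0.72 ± 0.16, adjusted p = 0.0029), without overlap.

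Among the translocon genes, Sec61b read 105, 117 and 98.3 CPM in fresh ACF, against 66.8, 58.6 and 64.5 CPM in fresh YCF (0.72 ± 0.11, adjusted p = 0.00016). Sec61a1, the pore itself, had 615, 592 and 583 CPM in fresh ACF, against 452, 436 and 433 CPM in fresh YCF (0.40 ± 0.05, adjusted p = 5.5e-05). Both rose without overlap, while the third translocon gene, Ssr1 of the associated TRAP complex, fell by 0.33 ± 0.05 on the log2 scale (adjusted p = 9.4e-05). Selenos, a selenoprotein of the degradation machinery, had 334, 353 and 331 CPM in fresh ACF, against 258, 259 and 247 CPM in fresh YCF (0.38 ± 0.06, adjusted p = 0.0003). Fkbp14, a prolyl isomerase that acts on collagen, had 36.3, 36.5 and 33.7 CPM in fresh ACF, against 24.6, 19.0 and 28.98 CPM in fresh YCF (0.54 ± 0.18, adjusted p = 0.036). Its groups did not overlap, but its call was lost without fresh YCF replicate 2 or without any 1 of the 3 fresh ACF libraries. The glycoprotein folding trio of Calr, Canx and Pdia3 rose by 0.23, 0.16 and 0.27 on the log2 scale, and the COPII coat genes Sec23b and Sec24d by 0.31 and 0.26. Canx lost its call in 5 of 12 other settings and Creld2, at 0.17 ± 0.06 (adjusted p = 0.048), in 10 of 12.

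Creb3l1 (OASIS), a membrane-bound relative of ATF6 that drives collagen transcription in mouse bone, had 11.6, 9.12 and 10.2 CPM in fresh ACF, against 21.6, 21.3 and 19.2 CPM in fresh YCF. All ACF libraries lay below all YCF libraries (-1.04 ± 0.21, adjusted p = 0.0018). Herpud1, a membrane protein of ER-associated degradation, had 129.6, 139 and 128 CPM in fresh ACF, against 172, 203 and 168 CPM in fresh YCF (-0.49 ± 0.09, adjusted p = 0.00057). Dnajc3, a BiP co-chaperone that also inhibits PERK, had 378, 377 and 372 CPM in fresh ACF, against 460.1, 503 and 475 CPM in fresh YCF (-0.39 ± 0.06, adjusted p = 9.2e-05). Kdelr2, a receptor that returns escaped ER proteins from the Golgi, had 293, 302 and 304 CPM in fresh ACF, against 353, 366 and 329 CPM in fresh YCF (-0.26 ± 0.06, adjusted p = 0.0056). These 4 genes had no overlap between the ages.

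Hspa5 was nearly level: it had 5209.7, 5294 and 4863 CPM in fresh ACF, against 5192, 5659 and 5351 CPM in fresh YCF. The ranges overlapped, and the call at -0.11 ± 0.04 (adjusted p = 0.047) was lost in 8 of 12 other settings, among them the ones without fresh YCF replicate 2 (-0.07) or 3 (-0.11) and without any 1 of the fresh ACF libraries. Xbp1 had 387, 403 and 382 CPM in fresh ACF, against 345, 307 and 361 CPM in fresh YCF, and did not pass (0.18 ± 0.07, adjusted p = 0.07, 95% interval 0.04 to 0.31). Ern1 stood at 0.11 ± 0.15 (95% interval -0.18 to 0.39) and Eif2ak3 at -0.58 ± 0.43 (-1.42 to 0.26), and neither passed.

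Other genes of the pathway, from lists outside the 40, were counted in the same fit. These lists, and the cargo and marker lists below, are read against 15.0% of all 11786 genes higher and 16.8% lower. Of 10 PERK arm targets, 3 rose and none fell: Chac1, a glutathione-degrading enzyme (1.90 ± 0.32), Trib3, a pseudokinase (1.25 ± 0.25), and the transcription factor Atf3 (1.31 ± 0.41). Trib3 had 25.2, 27.8 and 28.2 CPM in fresh ACF, against 15.8, 9.77 and 7.01 CPM in fresh YCF, without overlap. Of 24 other COPII and retrieval genes 6 rose and none fell, with Surf4 at 0.29 ± 0.05, Lman1 at 0.34 ± 0.08 and Copb1 at 0.26 ± 0.07. Of 25 other translocon and glycosylation genes 7 rose and 2 fell, among them Serp1 at 0.58 ± 0.05, Ssr3 at 0.41 ± 0.07 and Spcs2 at -0.23 ± 0.05. Of 23 other folding genes 4 rose and 2 fell: P4hb, both a disulfide isomerase and a subunit of collagen prolyl 4-hydroxylase, at 0.29 ± 0.05, the oxidase Ero1a at 0.47 ± 0.09, and the collagen chaperone Serpinh1 at -0.28 ± 0.04. Degradation genes split evenly, with 3 higher and 3 lower of 19 tested (Ube2j1 0.44, Man1b1 -0.46, Stub1 -0.46), and 2 of 10 tested other ER stress regulators rose, Creb3l2 (0.94 ± 0.14) and Wfs1 (0.83 ± 0.18).

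Secreted matrix cargo fell over the same libraries, in 7 of 8 genes, with Col1a1 at -2.40 ± 0.06, Col1a2 at -2.22 ± 0.08 and Col3a1 at -1.56 ± 0.06. Col1a1 had 263, 261 and 241 CPM in fresh ACF, against 1279.7, 1271 and 1409 CPM in fresh YCF. Myeloid markers moved as well: 4 of 7 tested rose, Cd14 by 1.86, Cd68 by 1.06 and Lyz2 by 0.73 among them, and their summed level given above did not overlap between the fresh groups. Neutrophil markers summed to 7.43 to 11.0 CPM in fresh ACF and 0.467 to 1.03 in fresh YCF, with S100a9, Ly6g and Retnlg at 0 in both. S100a8 rose by 3.93 and the endothelial Cdh5 by 0.95. The part of these cells in the changes of the 40 genes was not tested.

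**Figure D2:**
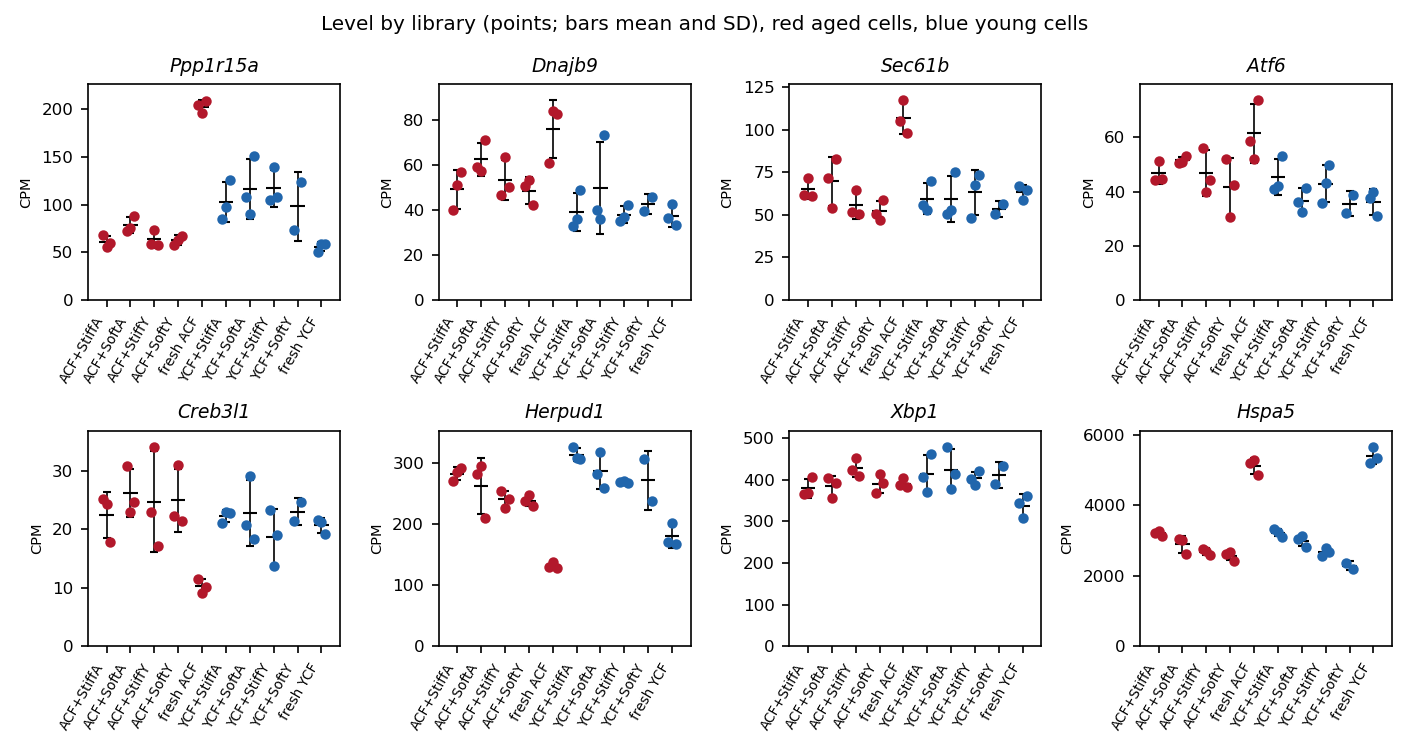
CPM per library (points, linear axis from 0) for Ppp1r15a, Dnajb9, Sec61b, Atf6, Creb3l1, Herpud1, Xbp1 and Hspa5 over the 10 groups, aged cells in red left of young cells in blue. Fresh ACF stand alone at 196 to 208 CPM for Ppp1r15a, and all cultured libraries lie below all fresh libraries for Hspa5.

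In culture Hspa5, its partners Sdf2l1, Hyou1 and Dnajb11 and the secreted factors Creld2 and Manf fell in cells of both ages, while Fkbp14, Fkbp10, Herpud1, Sec31a, Mia3 and Kdelr3 rose. In young cells 10 of the 40 genes rose and 15 fell by edgeR's quasi-likelihood test, against 27.1% of all 13523 genes higher and 29.9% lower (56.9% either way). In aged cells 10 rose and 19 fell, against 29.9% of all genes higher and 32.5% lower (62.4% either way). The median log2 fold change was -0.10 in aged cells, where all genes had -0.01, and -0.05 in young cells, where all genes had -0.03. Library totals shifted the median of all genes by -0.11 in young cells and gave 9 higher and 16 lower there. Of the genes that fell, 13 were shared, which is 68.4% of those in aged cells and 86.7% of those in young cells. Among those that rose, 7 were shared, 70% of each. Sharing was not counted over all genes, of which 56.9% in young and 62.4% in aged cells were called either way. These shares therefore do not set the 40 genes apart. The comparisons have no library in common but one fit.

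Hspa5 had 2437 to 3273 CPM with a median of 2739.8 in cultured ACF, against 5209.7, 5294 and 4863 CPM in fresh ACF (-0.86 ± 0.05, adjusted p = 3.1e-16). It had 2194 to 3323 CPM with a median of 2817 in cultured YCF, against 5192, 5659 and 5351 CPM in fresh YCF (-0.96 ± 0.05, adjusted p = 3.5e-17). No cultured library reached any fresh one. The farthest down in both ages, apart from Ppp1r15a in aged cells, was Creld2, a secreted protein induced by ER stress. Creld2 had 101 to 161 CPM with a median of 122 in cultured ACF, against 341, 338 and 315 CPM in fresh ACF (-1.42 ± 0.09, adjusted p = 3.7e-15). In cultured YCF it had 85.1 to 128 CPM with a median of 107, against 276, 297 and 288 CPM in fresh YCF (-1.40 ± 0.09, adjusted p = 1.4e-14). No cultured library reached a fresh one at either age.

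Manf, the secreted stress factor that also binds BiP, had 154 to 239 CPM in cultured ACF, against 365, 358 and 371 CPM in fresh ACF (-0.88 ± 0.06). In cultured YCF it had 115 to 204 CPM, against 343, 359 and 343 CPM in fresh YCF (-1.08 ± 0.06). Sdf2l1, which keeps BiP clients soluble together with Dnajb11, had 57.9 to 92.7 CPM in cultured ACF and 132 to 150.1 in fresh ACF (-1.04 ± 0.11). These genes also separated fully from the fresh libraries. In young cells Sdf2l1 had 41.4 to 71.3 CPM in culture and 112 to 129 fresh (-1.24 ± 0.11). Hyou1, the nucleotide exchange factor of BiP, fell by 1.00 ± 0.13 in aged and 0.96 ± 0.14 in young cells on the log2 scale, and the co-chaperone Dnajb11 by 0.82 in aged and 0.81 ± 0.09 in young cells. Of the 9 chaperones, 7 fell in each age; Dnajc3 rose in aged cells (0.33). In aged cells the calls of Hsp90b1 (-0.15) and Canx (-0.13) were lost in 11 and 14 of 21 other settings. Sec61a1 fell too, by 1.03 ± 0.07 in aged and 0.80 ± 0.07 in young cells.

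Creld2, Manf, Hspa5, Hyou1 and Dnajb11 thus moved together, but Herpud1 went the other way. The 2 genes with an ERSE-II match, Herpud1 and Dnajb11, moved in opposite directions. Herpud1 had 209.7 to 295 CPM with a median of 251 in cultured ACF, against 129.6, 139 and 128 CPM in fresh ACF (0.95 ± 0.09, adjusted p = 2.1e-10). It had 238 to 327 CPM with a median of 282 in cultured YCF, against 172, 203 and 168 CPM in fresh YCF (0.66 ± 0.09, adjusted p = 2.2e-07). The groups did not overlap at either age.

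Among the collagen folding genes, Fkbp14 had 47.1 to 93.4 CPM with a median of 72.8 in cultured ACF, against 36.3, 36.5 and 33.7 CPM in fresh ACF (1.00 ± 0.15, adjusted p = 1.7e-06). In cultured YCF it had 35.3 to 82.8 CPM with a median of 47.3, against 24.6, 19.0 and 28.98 CPM in fresh YCF (1.01 ± 0.17, adjusted p = 4.9e-06). Fkbp10, a collagen chaperone, rose by 0.51 at both ages (SE 0.06 in young cells). In transport, Sec31a of the outer COPII coat had 466 to 599 CPM in cultured ACF, against 327, 286 and 349 CPM in fresh ACF (0.70 ± 0.12). In young cells it had 382 to 647 CPM in culture, against 381, 286 and 270.2 CPM fresh (0.73 ± 0.12). Its highest fresh YCF library was close to the lowest cultured one. Within the same roles, the COPII coat gene Sec23b fell, by 0.79 ± 0.07 in aged and 0.40 ± 0.08 in young cells, and the prolyl isomerase Fkbp2 by 0.65 ± 0.10 in aged and 0.60 ± 0.10 in young cells. Mia3 (TANGO1), which packs procollagen into COPII carriers, rose by 0.53 ± 0.09 in aged and 0.46 in young cells, and the retrieval receptor Kdelr3 by 0.54 ± 0.08 in aged and 0.78 ± 0.08 in young cells.

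Ppp1r15a was the one gene of the 40 called in opposite directions. It had 55.4 to 88.6 CPM with a median of 65.3 in cultured ACF, against 205, 196 and 208 CPM in fresh ACF (-1.62 ± 0.12, adjusted p = 1.2e-12). It had 72.9 to 151 CPM with a median of 108 in cultured YCF, against 50.3, 58.9 and 58.4 CPM in fresh YCF (0.95 ± 0.15, adjusted p = 2.5e-06). In culture the aged cells therefore lay mostly below the young cells, the reverse of the order in fresh cells. Creb3l1 rose in aged cells, to 17.1 to 34.1 CPM with a median of 23.7 in cultured ACF, against 11.6, 9.12 and 10.2 CPM in fresh ACF (1.24 ± 0.21, adjusted p = 5.1e-06). In cultured YCF it had 13.7 to 29.1 CPM with a median of 21.3, against 21.6, 21.3 and 19.2 CPM in fresh YCF, and did not pass (0.06 ± 0.18, 95% interval -0.29 to 0.42).

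Of the sensors, Xbp1 stood at 0.02 ± 0.07 in aged cells (95% interval -0.12 to 0.16) and rose by 0.29 ± 0.07 in young cells (adjusted p = 0.0013). Atf6 fell by 0.40 ± 0.13 in aged cells (adjusted p = 0.009) and stood at 0.12 ± 0.14 in young cells. Without fresh ACF replicate 3, its highest fresh library at 73.7 CPM, the value in aged cells was -0.25 and did not pass. Ern1 fell by 0.31 ± 0.11 in aged cells (adjusted p = 0.018, lost in 5 of 21 other settings) and stood at -0.21 ± 0.11 in young cells (adjusted p = 0.12). Eif2ak3 did not pass at either age (0.55 ± 0.39 in aged and -0.46 ± 0.36 in young cells).

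The genes outside the 40 are read against 29.9% of all genes higher and 32.5% lower in aged cells, and 27.1% higher and 29.9% lower in young cells. COPII and retrieval genes rose in 12 of 24 and fell in 5 in aged cells, and rose in 12 with none lower in young cells. Sec23a rose by 1.10 in aged and 0.70 in young cells, Tmed3 by 0.99 in aged and 0.95 in young cells, and Sec22b by 0.76 in aged and 0.59 in young cells. Translocon and glycosylation genes fell more often than they rose, 12 lower and 3 higher of 25 in aged cells and 9 lower and 4 higher in young cells. The signal peptidase subunit Spcs3 fell by 1.51 in aged and 1.30 in young cells, and the oligosaccharyltransferase subunit Rpn1 by 0.66 in aged and 0.70 in young cells. Srpr, of the signal recognition particle receptor, fell by 0.54 in aged cells and Spcs2 by 0.78 in young cells. Folding genes gave 9 higher and 4 lower of 23 in aged cells (Serpinh1 1.18, Lrpap1 1.36, Fkbp9 1.29) and 7 higher and 5 lower in young cells (Serpinh1 1.02, Fkbp9 1.30, Tmx1 -1.03).

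Degradation genes gave 8 higher and 5 lower of 19 tested in aged cells (Ube2g2 0.96, Man1b1 0.66, Erlec1 1.01) and 9 higher and 4 lower in young cells (Os9 0.75, Ube2g2 0.64, Stub1 -0.70). PERK arm targets gave 2 higher and 7 lower of 10 in aged cells, with Chac1 at -1.82, Atf3 at -3.23 and Nupr1 at 0.96. In young cells they gave 3 higher and 1 lower, with Nupr1 at 1.17, Sesn2 at 1.16 and Trib3 at 0.66. Other stress regulators gave 4 higher and 2 lower of 10 tested in aged cells (Creb3l2 1.00, Creb3 0.83, Atf6b -0.62) and 5 higher and 2 lower in young cells (Creb3l2 1.63, Creb3 0.97, Mbtps2 -0.80). All 8 cargo genes rose at both ages, with Col1a1 at 5.35 in aged and 3.23 in young cells, Col6a1 at 5.04 in aged and 3.64 in young cells, Col1a2 at 3.93 in aged and Col3a1 at 2.52 in young cells. Myeloid markers fell in 7 of 7 tested in aged cells and 6 of 7 in young cells, and endothelial markers in 4 of 6 in aged and 5 of 6 in young cells with 1 higher in each. The part of these cells in the changes was not tested.

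**Figure D3:**
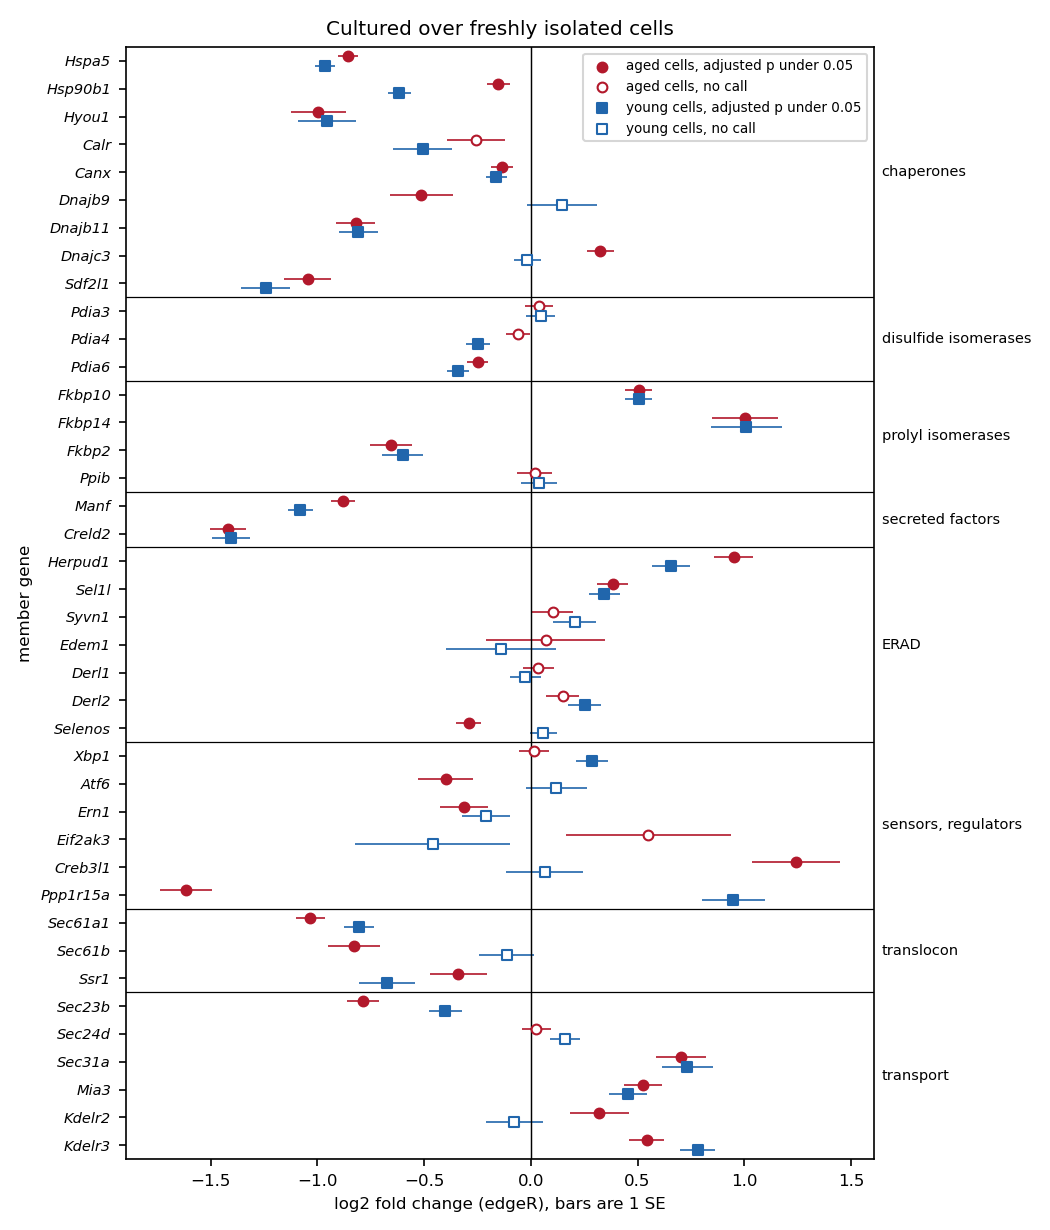
Log2 fold change of cultured over fresh cells for the 40 genes (bars are 1 SE), red circles for aged cells and blue squares for young cells, filled where the adjusted p was under 0.05. Both ages track each other for most genes, and Ppp1r15a lies at -1.62 in aged and 0.95 in young cells.

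The difference between the ages in their response to culture was tested directly, as the log2 fold change in aged minus that in young cells. Of the 40 genes, 3 were higher and 5 lower by edgeR's quasi-likelihood test, against 10.5% of all 13523 genes higher and 10.1% lower (20.6% either way). Ppp1r15a differed most (-2.56 ± 0.20, adjusted p = 1.8e-11). Sec61b (-0.71 ± 0.18), Dnajb9 (-0.66 ± 0.22), Sec23b (-0.39 ± 0.11) and Selenos (-0.35 ± 0.09) were also lower, and these 4 were among the genes that were higher in fresh ACF than in fresh YCF. Creb3l1 was higher (1.18 ± 0.27, adjusted p = 0.0019), as was Dnajc3 (0.34 ± 0.09), both lower in fresh ACF than in fresh YCF. The comparison uses the same fresh libraries, so these directions repeat the fresh difference in part.

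Hsp90b1 (GRP94), the ER member of the HSP90 family, was the third that was higher (0.46 ± 0.08, adjusted p = 3.2e-05). It had 704 to 1052 CPM with a median of 864 in cultured ACF, against 992, 962 and 952 CPM in fresh ACF, and 505 to 744 CPM with a median of 679.9 in cultured YCF, against 925, 990.2 and 1063 CPM in fresh YCF. Culture separated the groups in young cells and not in aged cells. Atf6 (-0.52 ± 0.19, adjusted p = 0.056), Xbp1 (-0.27 ± 0.10, adjusted p = 0.057), Hspa5 (0.11 ± 0.07), Ern1 (-0.10 ± 0.16) and Eif2ak3 (1.01 ± 0.53) did not pass. Library totals shifted the median of all genes by 0.19 and gave 11 higher and 2 lower, with Selenos, Sec23b and Dnajb9 no longer called. The Dnajb9 call was lost in 10 of 35 other settings.

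The lists outside the 40 are read against 10.5% of all genes higher and 10.1% lower in this difference. Of 10 PERK arm targets 3 were lower (Atf3 -3.85, Chac1 -2.07, Trib3 -1.24) and none higher, and 2 other stress regulators were lower (Creb3l2 -0.63, Wfs1 -0.61). Cargo was higher in 6 of 8 genes (Col1a1 2.11, Col1a2 1.92, Fn1 1.62). Folding genes gave 2 higher and 1 lower (Txndc12 0.41, Uggt1 0.32, Ppic -0.61) and degradation genes 4 higher and 2 lower (Man1b1 0.52, Stub1 0.40, Ube2j1 -0.56). In translocation Serp1 alone was called (-0.46), and in COPII transport Sec23a (0.40) and Sec24b (-0.59).

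Among cultured cells, aged fibroblasts carried more mRNA of the lectin chaperones, GRP94 and the disulfide isomerases than young ones, while BiP mRNA did not pass the test. Averaged over the 4 substrates, 16 of the 40 genes rose and 2 fell in ACF by edgeR's quasi-likelihood test, against 6.52% of all 12841 genes higher and 8.50% lower (15.0% either way). The median was 0.15 for the 40 and -0.00 for all genes. By role, 5 of 9 chaperones, 3 of 3 disulfide isomerases, 2 of 4 prolyl isomerases, 1 of 2 secreted factors, 2 of 7 degradation genes, 1 of 3 translocon genes and 2 of 6 transport genes rose.

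Hsp90b1, at 704 to 1052 CPM in cultured ACF and 505 to 744 CPM in cultured YCF, had the smallest p of the 40 (0.42 ± 0.04, adjusted p = 5.2e-09). Calr, the soluble lectin chaperone and calcium store of the ER, had 356 to 826 CPM with a median of 460.2 in cultured ACF, against 222 to 574 CPM with a median of 312 in cultured YCF (0.51 ± 0.10, adjusted p = 0.00079). Pdia4 had 339 to 434 CPM with a median of 394 in cultured ACF, against 287 to 360.4 CPM with a median of 309 in cultured YCF (0.31 ± 0.04, adjusted p = 4.6e-06). The ranges of all 3 overlapped, as each spans 4 substrates. Fkbp14 rose most, with a median of 72.8 CPM in cultured ACF and 47.3 in cultured YCF (0.56 ± 0.10, adjusted p = 0.0002). Sdf2l1 had a median of 68.8 CPM in cultured ACF and 47.2 in cultured YCF (0.41 ± 0.09, adjusted p = 0.0022), and Dnajb9 had 52.3 in cultured ACF and 39.7 in cultured YCF (0.34 ± 0.11, adjusted p = 0.033, lost in 13 of 29 other settings).

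Pdia3 (0.29 ± 0.05), Ppib, a cyclophilin of the collagen prolyl 3-hydroxylase complex (0.27 ± 0.05), Manf (0.26 ± 0.04), Canx (0.21 ± 0.03), Mia3 (0.19 ± 0.06) and Pdia6 (0.14 ± 0.04) rose by less. Sec61a1 (0.20), Derl1 (0.18), Sec24d (0.15) and Sel1l (0.15) complete the 16. Ppp1r15a fell, with 55.4 to 88.6 CPM in cultured ACF against 72.9 to 151 CPM in cultured YCF (-0.71 ± 0.10, adjusted p = 1e-05). Herpud1 was called lower at -0.17 ± 0.06 (adjusted p = 0.049), and 24 of 29 other settings lost that call. Hspa5, at 0.02 ± 0.03, had a 95% interval of -0.04 to 0.09, narrower than the differences of Hsp90b1 or Calr. Xbp1 (-0.07 ± 0.05), Atf6 (0.23 ± 0.09, adjusted p = 0.095), Ern1 (0.03 ± 0.08), Eif2ak3 (0.46 ± 0.25) and Creb3l1 (0.16 ± 0.13) did not pass. Without YCF+SoftA replicate 3, Fkbp14 stood at 0.66, Calr at 0.61, Dnajb9 at 0.45 and Hsp90b1 at 0.44, and Atf6 passed at 0.27 (adjusted p = 0.048).

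Of the lists outside the 40, against 6.52% of all genes higher and 8.50% lower, 12 of 24 other COPII and retrieval genes rose and none fell (Surf4 0.30, Tmed3 0.31, Sec23a 0.26), and 10 of 23 other folding genes rose and 2 fell (Uggt1 0.24, P4hb 0.28, Ero1a 0.25). Translocon and glycosylation genes gave 6 higher and 1 lower (Ssr3 0.34, Sec62 0.26, Ssr2 -0.22), degradation genes 2 higher (Erlec1 0.29, Edem3 0.21), and other regulators 1 higher (Creb3l2 0.34). The PERK arm gave 3 lower and none higher (Atf3 -2.52, Cebpb -0.91, Vldlr -0.56). Cargo fell in 5 of 8 genes (Col3a1 -0.53, Col1a2 -0.27, Col1a1 -0.26) and fibroblast markers in 7 of 8. Endothelial markers rose in 5 of 6 (Cdh5 1.41, Tie1 1.30, Pecam1 1.12), with sums of 84.9 to 152 CPM in cultured ACF and 61.3 to 110 in cultured YCF, and their part in these differences was not tested.

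Within culture, BiP, GRP94, calnexin and Manf mRNA were higher on aged than on young matrix at both cell ages. On aged over young matrix, averaged over stiffness, 8 of the 40 genes rose and none fell in aged cells, against 4.14% of 12841 genes higher and 3.30% lower (7.44% either way). In young cells 4 rose and none fell, against 1.67% of all genes higher and 0.825% lower (2.49% either way). The 4 called in young cells, Manf, Hspa5, Hsp90b1 and Canx, were all among the 8 of aged cells. These fits carry no block, and a replicate block within cell age gave more calls in aged cells, as set out at the end. The median of the 40 was 0.16 in aged cells (all genes -0.01) and 0.09 in young cells (all genes -0.00).

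In aged cells Calr had 469 to 826 CPM with a median of 518 on aged matrix, against 356 to 451 CPM with a median of 365 on young matrix (0.55 ± 0.13, adjusted p = 0.012). The groups did not overlap, but ACF+SoftA replicate 3 stood out at 826 CPM; without it the value was 0.41 and did not pass. Manf had 208 to 239 CPM with a median of 231 on aged matrix, against 154 to 188 CPM with a median of 181 on young matrix (0.39 ± 0.06, adjusted p = 0.00015). Hsp90b1 had 909 to 1052 CPM with a median of 985 on aged matrix, against 704 to 818 CPM with a median of 781 on young matrix (0.37 ± 0.05, adjusted p = 2.8e-05). Both were higher in all 6 libraries on aged matrix than in any of the 6 on young matrix. Fkbp10 had 452 to 512 CPM on aged matrix, against 354 to 413 CPM on young matrix (0.34 ± 0.06, adjusted p = 0.0004). Canx had 1173 to 1245 CPM on aged matrix, against 939 to 1129.9 CPM on young matrix (0.24 ± 0.05, adjusted p = 0.0018). These also separated, as did Pdia3, at 2333 to 2696 CPM on aged and 1941 to 2237 CPM on young matrix (0.26 ± 0.06, adjusted p = 0.011), and Pdia6, at 1228 to 1328 CPM on aged and 987 to 1172 CPM on young matrix (0.24 ± 0.05, adjusted p = 0.0025). Without ACF+StiffY replicate 3, Pdia3 stood at 0.23 and lost its call. Hspa5 overlapped slightly, with 2615 to 3273 CPM and a median of 3092 on aged matrix, against 2437 to 2767 CPM and a median of 2642 on young matrix (0.22 ± 0.05, adjusted p = 0.0037).

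In young cells Hspa5 had 2817 to 3323 CPM with a median of 3115 over 6 libraries on aged matrix, against 2551, 2785, 2676, 2378 and 2194 CPM on young matrix (0.33 ± 0.05, adjusted p = 0.00033), without overlap. Manf had 169 to 204 CPM with a median of 190.0 on aged matrix, against 175, 172, 179, 121 and 115 CPM on young matrix (0.39 ± 0.07, adjusted p = 0.00077). The low Manf values are the 2 libraries of YCF+SoftY. Hsp90b1 had 678 to 744 CPM on aged matrix, against 634, 658, 679.9, 505 and 539.9 CPM on young matrix (0.29 ± 0.05, adjusted p = 0.0022), and the groups touched. Canx had 955 to 1083 CPM on aged matrix, against 959.7, 985, 969.8, 769.8 and 862 CPM on young matrix (0.21 ± 0.05, adjusted p = 0.021); they overlapped, and 8 of 18 other settings lost the call, among them the one without YCF+SoftA replicate 3 (0.18). Calr was in the same direction but did not pass (0.35 ± 0.15, adjusted p = 0.28), with 280.0 to 574 CPM on aged matrix against 222 to 339 CPM on young matrix; the highest value is YCF+SoftA replicate 3, and the next is 416 CPM.

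Set out by cell age and stiffness there are 4 pairs of aged and young matrix. The group mean was higher on aged matrix in all 4 pairs for 18 of the 40 genes, in 3 pairs for 9, in 2 pairs for 10, in 1 pair for 2 and in none for 1. In Hsp90b1, Canx, Fkbp10 and Manf every library on aged matrix was above every library on young matrix within each pair. Neither count was made over all genes, so neither shows whether the 40 genes differ from the rest. The sensors did not pass at either age: Xbp1 stood at -0.09 ± 0.07 in aged and 0.03 ± 0.07 in young cells, Atf6 at 0.16 ± 0.12 in aged and 0.07 ± 0.14 in young cells. Ern1 stood at 0.15 ± 0.11 in aged and -0.17 ± 0.12 in young cells, and Eif2ak3 at -0.15 ± 0.32 in aged and -0.29 ± 0.38 in young cells. Neither Creb3l1 (-0.03 ± 0.17 in aged, 0.14 ± 0.18 in young cells) nor Ppp1r15a (0.15 ± 0.14 in aged, 0.02 ± 0.14 in young cells) passed.

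Outside the 40, in aged cells on aged matrix, against 4.14% of all genes higher, the genes that rose were 5 of 24 COPII and retrieval genes (Surf4 0.30, Mcfd2 0.22, Sec23a 0.21), 4 of 25 translocon and glycosylation genes (Ssr4 0.37, Serp1 0.30, Stt3a 0.17) and 4 of 23 folding genes (Serpinh1 0.40, P4hb 0.35, Uggt1 0.30), with none lower in these 3 lists and most members not called. Of the PERK arm 2 rose, Trib3 (0.71) and Nupr1 (0.30), and cargo gave 5 higher and 1 lower (Sparc 0.41, Col1a1 0.34, Col1a2 0.30). In young cells, against 1.67% of all genes higher and 0.825% lower, 2 folding genes (Uggt1 0.33, Serpinh1 0.19) and 1 regulator (Creb3l2 0.39) rose. Cargo gave Col3a1 at 0.20 and Col6a1 at -0.27 in young cells. Endothelial markers rose in 3 of 6 in aged cells (Tie1 1.42, Pecam1 1.16, Cdh5 0.88) and in 0 of 6 in young cells. Their sum was 142 to 152 CPM in ACF+SoftA and 120 to 149 in ACF+StiffA, against 84.9 to 107 in ACF+SoftY and 95.7 to 116 in ACF+StiffY. Their part in the changes in aged cells was not tested.

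**Figure D4:**
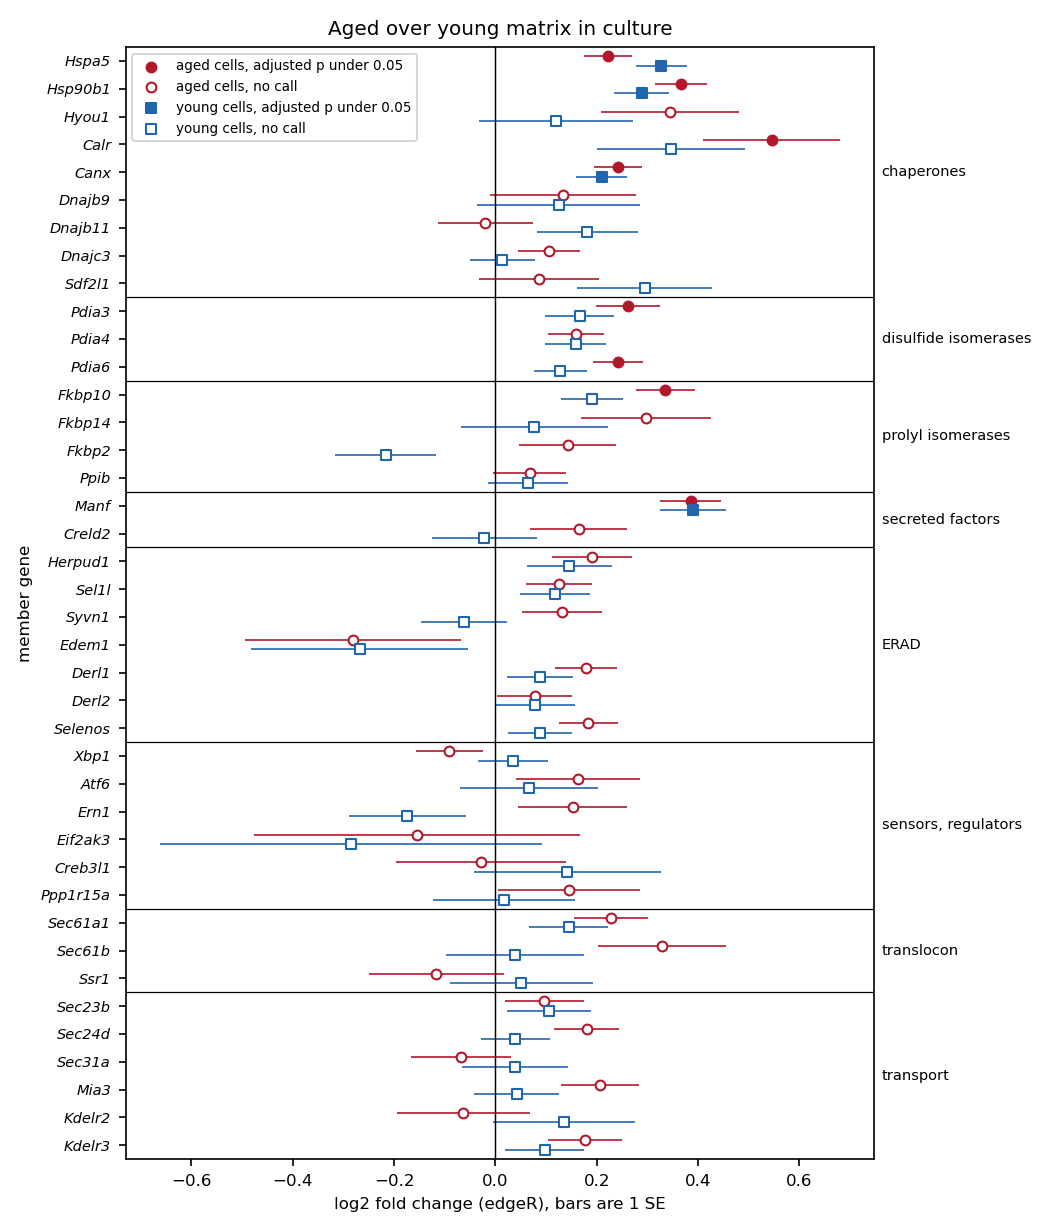
Log2 fold change of aged over young matrix for the 40 genes (bars are 1 SE), red circles for aged cells and blue squares for young cells, filled where the adjusted p was under 0.05. The 8 filled circles run from 0.22 (Hspa5) to 0.55 (Calr), and the 4 filled squares from 0.21 (Canx) to 0.39 (Manf).

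**Figure D5:**
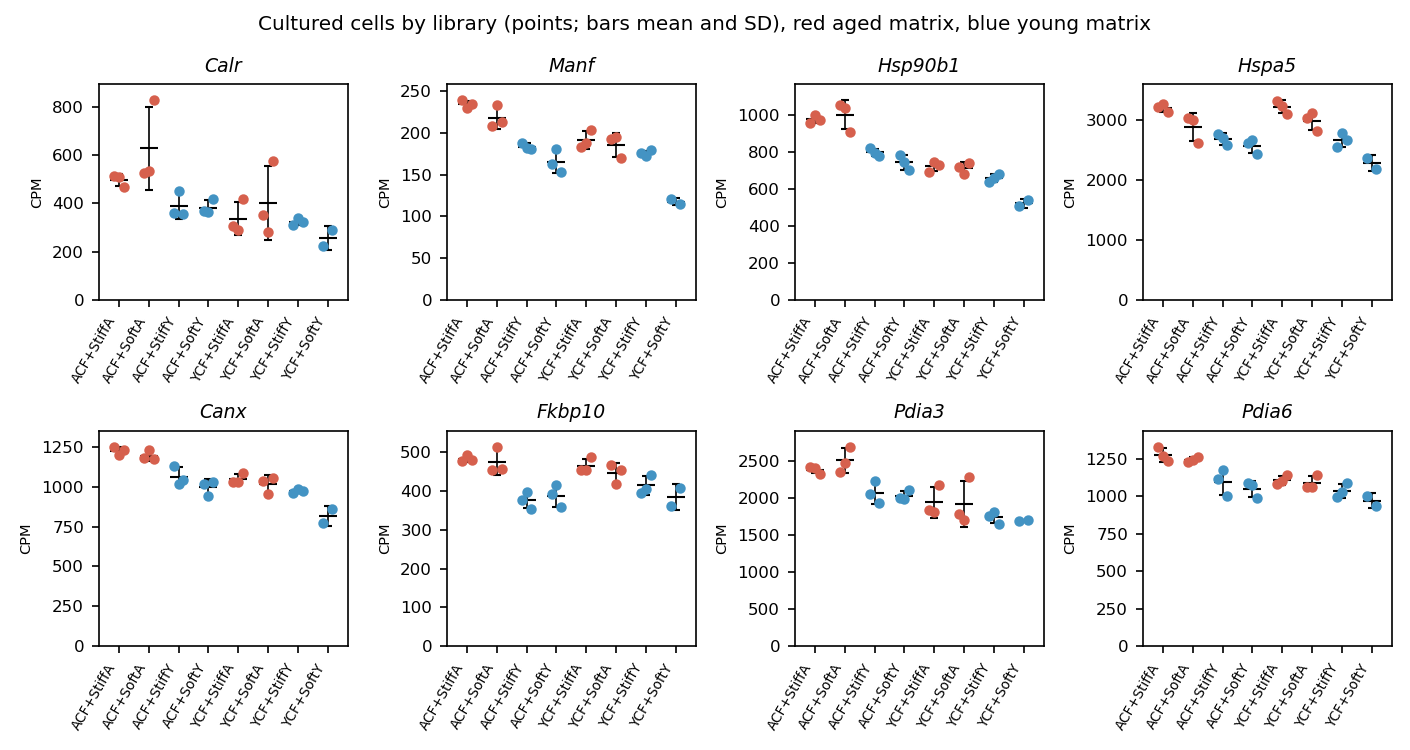
CPM per library (points, linear axis from 0) for Calr, Manf, Hsp90b1, Hspa5, Canx, Fkbp10, Pdia3 and Pdia6 over the 8 cultured groups, aged matrix in red and young matrix in blue. ACF+SoftA replicate 3 stands out at 826 CPM for Calr, and YCF+SoftY libraries are low at 115 and 121 CPM for Manf.

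On stiff over soft gels in young cells, 1 of the 40 rose and none fell by edgeR's quasi-likelihood test, against 1.66% of 12841 genes higher and 1.90% lower (3.56% either way). That gene was Manf, with 172 to 204 CPM and a median of 181 on stiff gels, against 115, 121, 169, 193 and 196 CPM on soft gels (0.31 ± 0.07, adjusted p = 0.0054). The groups overlapped: the low values are again those of YCF+SoftY, and without its replicate 2 Manf stood at 0.28 and did not pass. Hspa5 (0.17 ± 0.05, adjusted p = 0.067), Atf6 (0.29 ± 0.14, adjusted p = 0.3), Xbp1 (-0.03 ± 0.07), Ern1 (-0.02 ± 0.12), Eif2ak3 (-0.16 ± 0.38), Creb3l1 (-0.19 ± 0.18) and Ppp1r15a (0.06 ± 0.14) did not pass. Outside the 40, Uggt1 rose (0.29), Tmed3 (-0.31) and Nupr1 (-0.37) fell, and cargo gave Fn1 at 0.32, Col3a1 at -0.29 and Col6a1 at -0.37. Pecam1, of the endothelial markers, fell by 1.46 and its part was not tested.

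In aged cells, edgeR called 0 of the 40 on stiff over soft gels, against 0.00779% of all genes higher and 0.288% lower (0.296% either way), with 2 at an unadjusted p under 0.05 (Hspa5 and Manf) and 0 by DESeq2. Hspa5 stood at 0.11 (95% interval 0.02 to 0.20) and Manf at 0.13 (0.01 to 0.25). Xbp1 (0.06 ± 0.07), Atf6 (0.01 ± 0.12), Ern1 (-0.10 ± 0.11), Eif2ak3 (0.38 ± 0.32), Creb3l1 (-0.09 ± 0.17) and Ppp1r15a (-0.18 ± 0.14) did not pass. No gene of the other pathway lists was called.

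The interactions called none of the 40 by edgeR. For stiffness with matrix age in aged cells (0.0234% of all genes called), 1 gene, Selenos, had an unadjusted p under 0.05 and DESeq2 called 0. In young cells (0.615% of all genes, 0.498% higher and 0.117% lower) 5 did, namely Manf, Hsp90b1, Calr, Canx and Sec31a, and DESeq2 called 1 lower, as did edgeR without YCF+SoftA replicate 3 or YCF+StiffA replicate 3. Manf stood closest, at -0.54 ± 0.13 (adjusted p = 0.054), since stiffness set YCF+StiffY apart from YCF+SoftY and not YCF+StiffA from YCF+SoftA. For cell age with matrix age (0.0935% of all genes, 0.0234% higher and 0.0701% lower), 2 genes, Fkbp2 and Ern1 (0.33 ± 0.16), had an unadjusted p under 0.05 and DESeq2 called 0. The matrix response in aged minus young cells was -0.11 for Hspa5 (95% interval -0.24 to 0.03), -0.01 for Manf (-0.18 to 0.17) and 0.20 for Calr (-0.19 to 0.59). The 4 genes called in aged cells alone are thus not shown to differ between the ages. For cell age with stiffness (0.787% of all genes, 0.319% higher and 0.467% lower), 0 genes had an unadjusted p under 0.05 and DESeq2 called 0, with Manf at -0.18 (-0.35 to -0.00) and Hspa5 at -0.06 (-0.19 to 0.08). Over these 4 interactions Xbp1 ranged from -0.14 ± 0.13 to 0.09 ± 0.10, Atf6 from -0.28 ± 0.25 to 0.10 ± 0.18, Creb3l1 from -0.18 ± 0.34 to 0.22 ± 0.37 and Ppp1r15a from -0.44 ± 0.28 to 0.13 ± 0.20. Ern1 ranged from -0.09 ± 0.16 to 0.33 ± 0.16 and Eif2ak3 from -0.05 ± 0.76 to 0.54 ± 0.50.

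The 8 genes with an ERSE match can be set beside the 22 matched genes with neither ERSE nor ERSE-II. On aged matrix 5 of the 8 rose in aged cells (Calr, Canx, Hsp90b1, Hspa5 and Pdia6), against 1 of the 22, and 3 of the 8 in young cells (Canx, Hsp90b1 and Hspa5), against 0 of the 22. Of all 12841 genes, 4.14% rose there in aged and 1.67% in young cells. The shares for the comparisons that follow are given with each above. With culture, 1 of the 8 rose and 5 fell in aged cells, against 5 and 9 of the 22, and 0 rose and 6 fell in young cells, against 8 and 5 of the 22. Between cultured aged and young cells 4 of the 8 rose and 0 fell, against 9 and 1 of the 22. In fresh cells 3 of the 8 rose and 2 fell with age, against 8 and 1 of the 22. The median of the 8 on aged matrix was 0.23 in aged and 0.17 in young cells, and that of the 22 was 0.14 in aged and 0.06 in young cells. Manf, called on aged matrix at both cell ages, and Fkbp10, called there in aged cells, had no window and are in neither set. These are counts of genes and were not tested. The matches were shown because of the calls on aged matrix, so the contrast there is not independent of them. Read counts per library differ as well: among the 22, Eif2ak3 had 5 to 28 and Ssr1 930 to 6684. Among the 8, Syvn1 had 124 to 395 and Hspa5 3231 to 19695. The part of count depth in these calls was not tested.

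Over the 13 comparisons, 37 of the 40 genes were called at least once. This was not counted over all genes, of which culture alone called 56.9% in young and 62.4% in aged cells. The 37 therefore do not set the 40 genes apart. The other 3 of the 40 were Syvn1, the ubiquitin ligase of ER-associated degradation, Edem1, which hands misfolded glycoproteins to degradation, and Eif2ak3. Syvn1 had 106, 139.6 and 107 CPM in fresh ACF against 97.2, 94.0 and 121 CPM in fresh YCF, and 109.8 to 146 CPM in cultured ACF against 95.1 to 134 CPM in cultured YCF. Edem1 varied widely between replicates, with 31.8, 15.3 and 29.4 CPM in fresh ACF and 64.7, 28.7 and 21.97 CPM in fresh YCF.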

How the data were processed

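The table that the authors deposited holds raw counts of mouse cardiac fibroblast RNA for 29 libraries. Per the labels' protocols, each library used 20 ng of RNA and a low-input kit. The submitters' processing notes name STAR 2.7.8a and the build mm39. HTSeq, named in the title of the table, is taken as the counter. Its version, annotation and strandedness were not given in the sources used here, so reads of overlapping or antisense genes cannot be told apart. All 29 columns were tied to samples.

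Counts were fitted in R 4.3.3 with edgeR 4.0.16 (TMM, filterByExpr by group, quasi-likelihood F test, Benjamini-Hochberg adjustment over all genes of a fit, calls at an adjusted p under 0.05). Fresh cells were fitted alone (6 libraries, 11786 genes), cultured cells together (23 libraries, 12841 genes) and culture against fresh over all 29 (13523 genes); substrates weigh equally. SE is the size of the log2 fold change divided by the root of F, and 95% intervals are 1.96 SE either way. Alternatives were DESeq2 1.42.0, other scalings, no filter, replicate blocks, other fits and leaving out each library. The labels do not say that library numbers mark a shared source, and the fits carry no block.

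The members and all lists were chosen with earlier results of these data known: other folding, degradation, translocon and glycosylation, COPII and retrieval genes, PERK arm targets, other stress regulators, cargo, and markers of fibroblasts, myeloid cells, neutrophils, plasma and B cells, T cells, endothelium, pericytes and cardiomyocytes (pericyte markers summed to 1.95 to 15.9 CPM). Hspa5, Xbp1, Atf6, Ern1, Eif2ak3, Creb3l1 and Ppp1r15a are named in every comparison, with up to 6 called members in each direction and up to 3 called genes of other lists by smallest p; further members complete the account of the 40. Exon lengths come from GENCODE M21 and promoters from RefSeq, both of GRCm38, and no coordinate was converted. Tested on simulated data for fresh cells (11556 genes), the fit recovered 50.7% of 1.5-fold, 94.0% of 2-fold and 100% of 4-fold changes. The simulation gave all genes the same dispersion and changed 67, 67 and 66 genes, all above a floor on CPM. Recovery for genes with few counts or a wider spread was not tested.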

Additional observations from a re-analysis of the deposited data

Results flagged for a closer look

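In 8 of the 40 genes the response to culture differed between aged and young cells by the test of the difference itself (log2 fold change of cultured over fresh, aged minus young, edgeR's quasi-likelihood test, adjusted p from 1.8e-11 to 0.033). The values were 1.18 for Creb3l1, 0.46 for Hsp90b1 and 0.34 for Dnajc3, and -2.56 for Ppp1r15a, -0.71 for Sec61b, -0.66 for Dnajb9, -0.39 for Sec23b and -0.35 for Selenos. Over all 13523 genes, 20.6% were called in this difference, so the count of 8 does not set the 40 genes apart. Ppp1r15a was called in opposite directions at the 2 ages. Groups held at most 3 libraries, too few to test single libraries as outliers.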

How the results depend on the processing

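The 40 genes gave 112 called values over the comparisons, and 2381 values of these under other settings: 2236 kept sign and call, 145 kept the sign but lost the call, and 0 changed sign. The causes of the moves below were not tested. In fresh cells, members higher were 8 with library totals (13 as reported), and members lower were 3 with all 29 libraries in 1 fit (6). For culture by cell age, library totals gave 11 higher and 2 lower and no filter gave 5 higher (3 and 5). For aged over young cells in culture, 1 member was lower (2) with RLE factors, library totals, DESeq2 or the replicate block shared across groups. For stiffness in young cells, 2 members were higher (1) with either replicate block or all 29 libraries in 1 fit. For matrix in aged cells, the replicate block within cell age gave 14 members higher (8) and 1630 genes in all (956). For stiffness by matrix in young cells, 1 member was lower (0) with library totals, DESeq2, the block within cell age or all 29 libraries, and 1 was higher with that block; genes in all were 186 with no filter, 134 with DESeq2, 267 with the block and 145 with all 29 libraries (79). In aged cells they were 23, 12 and 5 with no filter, DESeq2 and the block (3). For matrix by cell age they were 111 with no filter, 28 with DESeq2, 31 with the block and 19 with all 29 libraries (12).

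Over 18 other settings, the log2 fold change of Manf with stiffness in young cells ranged from 0.27 to 0.33. With each library left out in turn, members lower in aged than in young cells in culture fell from 2 to 1 in most fits. Genes in all ranged from 304 to 555 for stiffness in young cells, 179 to 346 for matrix in young cells, 596 to 1088 for matrix in aged cells, 47 to 211 for stiffness by matrix in young cells (members lower 0 to 1) and 3 to 33 for matrix by cell age. Leaving out a YCF+SoftY library leaves 1, which is assumed to vary like the other groups. The replicate block within cell age rests on library numbers: cultured libraries of the same number and age correlated above 0.1 in 24 of 33 pairs (median r 0.19), against 9 of 66 pairs of other numbers (median r -0.12). This is a hint of pairing from the data, which the labels do not state. The block within cell age could not be estimated for comparisons of cell age. Eif2ak3, on 5 to 28 counts per library, is limited by depth.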
